A study of Mus musculus with 4 samples.

Results

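Late domains of 3 Mb or longer are the long stretches of the mouse genome that replicate in the second part of S-phase without an early interruption. They were chosen by the population-based replication timing (RT) itself, as runs of at least 60 consecutive 50 kb bins on chromosomes 1 to 19 with RT below 0 in every bin and no bin missing. RT is the log2 of early over late reads, so a bin below 0 has a higher read density in the late than in the early fraction. The rule found 129 domains with 13573 of the 51427 deposited bins. They hold 28.3% of the 47928 autosomal bins (exact 95% interval 27.9% to 28.7%), or 679 Mb. Of the autosomal bins 57.9% have RT below 0, and the domains hold 48.9% of these. The domains are 129 of 983 late runs, 13.1%. Intervals of shares and of counts in this text cover counting only, since neighboring bins and clustered genes are not independent.

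The cells were diploid F121-9 mouse embryonic stem cells (ESCs), a hybrid of cas and 129 strains, grown untreated in N2B27 medium with 2i and LIF. Nascent DNA was pulse labeled with BrdU, and cells were sorted by DNA content into an early S fraction and a late S fraction, with 2 libraries of each. The deposited profile combines the 4 libraries into 1 value per bin, so a domain has no replicate error here and the reads behind a bin are unknown. The markers of the cell type cannot be checked in DNA replication data. A noise SD per bin was estimated in the domains at least 500 kb from both edges, from the difference between each bin and the mean of its neighbors. It was 0.16 log2, a robust SD from the median absolute deviation, scaled down to a single bin as if bins were independent. The spread of the differences themselves was wider. The value of 0.16 stands in for noise where bins are compared, although any smoothing of the profile is unknown. The line is one hybrid culture, and the reference sequence used for composition and genes is that of C57BL/6J and not of these cells.

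As background, mammalian chromosomes replicate as large units that start at characteristic times. Late units are mostly gene-poor and AT-rich, lie at the nuclear lamina and around nucleoli, belong to the inactive B compartment, and often contain genes used only in differentiated cells. Very long genes, many of which encode neuronal adhesion proteins, are known to lie in such regions.

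The sequences of the 3 longest domains are shown to give a view of the DNA at both extremes of timing. For each domain the central 150 bases of its latest bin and of the earliest bin within 2 Mb outside its edges were read from GRCm38 (the assembly called mm10), plus strand, with CpG in capitals. The 6 windows overlap no annotated exon.

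chr15:13774926-13775075, latest bin of the longest domain, RT -4.22: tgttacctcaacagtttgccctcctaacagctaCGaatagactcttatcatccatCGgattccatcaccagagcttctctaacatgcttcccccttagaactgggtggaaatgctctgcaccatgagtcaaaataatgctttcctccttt
chr15:12224926-12225075, earliest bin outside it, RT 3.52: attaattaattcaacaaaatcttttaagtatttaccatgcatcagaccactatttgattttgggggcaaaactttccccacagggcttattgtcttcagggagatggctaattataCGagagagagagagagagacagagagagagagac
chr1:116624926-116625075, latest bin of the second domain, RT -4.34: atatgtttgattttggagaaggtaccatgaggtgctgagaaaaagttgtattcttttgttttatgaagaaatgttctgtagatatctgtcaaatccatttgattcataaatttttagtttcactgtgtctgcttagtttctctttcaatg
chr1:119074926-119075075, earliest bin outside it, RT 3.59: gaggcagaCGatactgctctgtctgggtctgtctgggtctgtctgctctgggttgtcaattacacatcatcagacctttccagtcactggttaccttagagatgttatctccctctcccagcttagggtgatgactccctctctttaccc
chr14:114574926-114575075, latest bin of the third domain, RT -4.18: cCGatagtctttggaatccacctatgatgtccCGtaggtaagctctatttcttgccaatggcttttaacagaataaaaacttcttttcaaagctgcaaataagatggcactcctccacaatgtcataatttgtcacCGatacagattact
chr14:118774926-118775075, earliest bin outside it, RT 3.09: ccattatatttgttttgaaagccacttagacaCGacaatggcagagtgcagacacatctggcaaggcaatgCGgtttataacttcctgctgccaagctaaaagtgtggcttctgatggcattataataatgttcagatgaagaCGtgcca

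Windows this short vary. The GC content of the late window was 44.7% against 38.7% on chromosome 15, 30.7% against 50.7% on chromosome 1, where all 150 bases of the late window are masked as repeats, and 38.7% against 42.7% on chromosome 14. Over the whole 50 kb bins the order was the same in the 3 pairs. The late bins had a GC content of 36.4%, 38.4% and 38.4%, and the early bins 46.2%, 48.7% and 44.6%. The late bins held 235, 210 and 265 CpGs, and the early bins 707, 758 and 569.

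Domain lengths ran from 3 to 12.10 Mb, with a median of 4.35 Mb and quartiles of 3.55 and 6.25 Mb. There were 51 domains of 5 Mb or longer and 8 of 10 Mb or longer. The longest, chr15:13100001-25200000 (12.10 Mb), had a mean RT of -3.17 over its bins. It starts 6 protein-coding genes, of which 5 are type II cadherins, the cell adhesion proteins of neural and mesenchymal tissue. Cdh10 had RT -3.84 at its start, Cdh12 -3.73, Cdh18 -3.68 and Cdh9 -2.51, whereas Cdh6 starts next to the left edge and had RT -0.95. The other gene, Acot10, had RT -4.13. Cdh6 thus lay on the slope of the edge and the other 4 cadherins in the late plain or on an interior rise.

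The second longest domain, chr1:106200001-118100000 (11.90 Mb), had a mean RT of -3.07 and 24 gene starts. Its left part carries a cluster of 11 Serpinb genes, which encode intracellular protease inhibitors. RT at the start was -2.28 at Serpinb12 and -2.58 at Serpinb13 near the edge, -3.41 at Serpinb3a and Serpinb3d and -4.21 at Serpinb3b and Serpinb3c. Farther in it was -3.82 at Serpinb11 and Serpinb7, -3.97 at Serpinb2 and -4.25 at Serpinb8, so that RT did not fall steadily along the cluster. Bcl2, which encodes an inhibitor of cell death, lies outermost of these, with RT -1.53. Deeper inside lie the cadherin genes Cdh7 (RT -3.69) and Cdh19 (-1.73) and the neurexin-family gene Cntnap5a (-3.80). The neighboring domain to its left, chr1:94100001-105700000 (11.60 Mb, mean RT -3.14), is the fourth longest and holds Cdh20 (RT -3.66) and Cntnap5b (-3.40). The 500 kb between both had a highest RT of 0.82 and holds the starts of Phlpp1, Tnfrsf11a and Zcchc2, and from end to end the pair covers 24 Mb. A cadherin and a Cntnap5 gene thus lie on either side of this gap.

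The other 2 of the 5 longest domains are on chromosome 14. The one at chr14:106000001-117800000 (11.80 Mb) had a mean RT of -3.42 and 7 gene starts. They include Slitrk1 (RT -3.71), Slitrk5 (-3.69) and Slitrk6 (-3.49), membrane proteins that control neurite outgrowth, and the glypican genes Gpc5 and Gpc6. Gpc6 (-1.75) starts within 100 kb of an interior peak, which has RT -1.65 and lies 900 kb from the nearer edge. The one at chr14:87400001-98900000 (11.50 Mb) had a mean RT of -3.42 and 6 gene starts, with the protocadherin genes Pcdh20 (RT -4.03) and Pcdh9 (-3.62) and Dach1 (-4.11), which encodes a transcriptional regulator. It also has the longest stretch of any domain without a protein-coding gene start, 5.42 Mb. A gap of 400 kb with a highest RT of 1.42, which holds the start of Diaph3, separates it from the domain at chr14:79800001-87000000. Diaph3 encodes a formin, a protein that assembles actin.

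**Figure D1:**
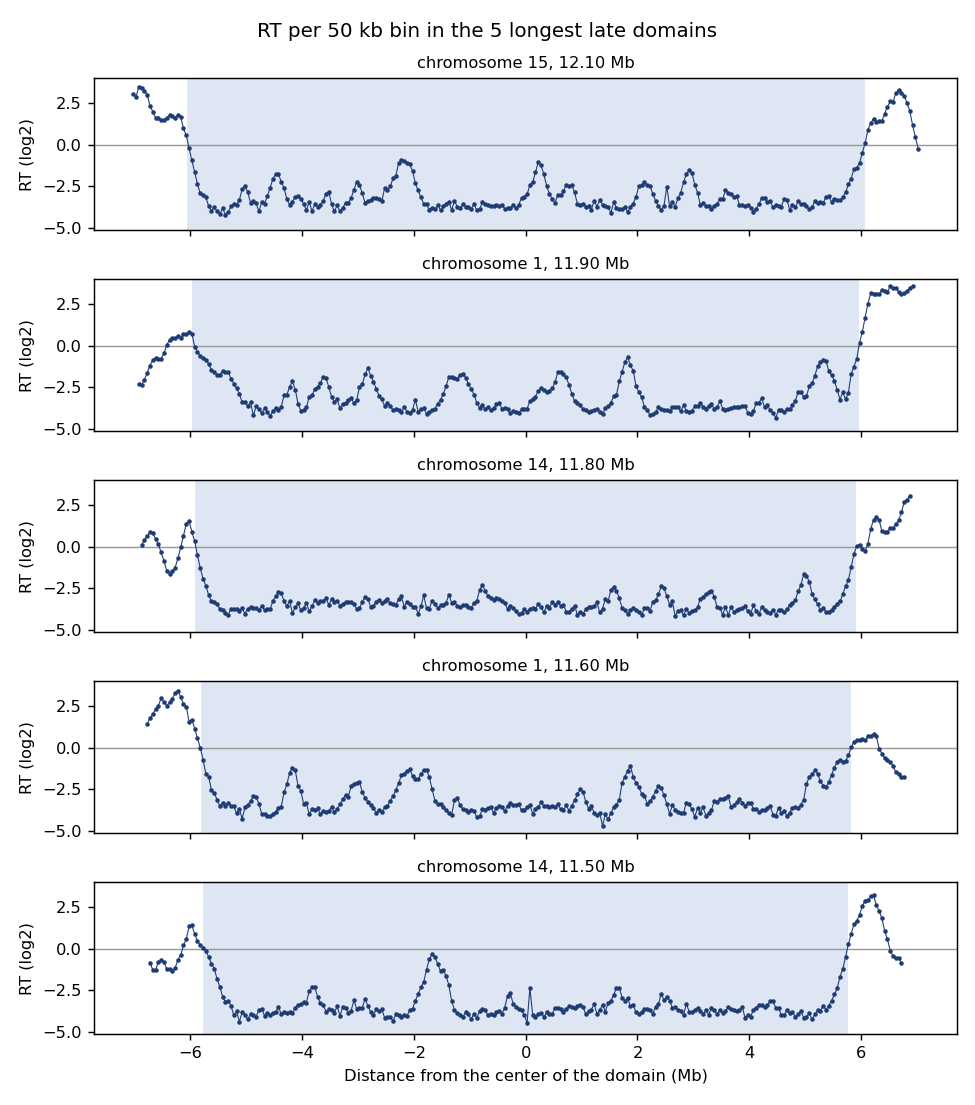
RT (log2 of early over late) per 50 kb bin in the 5 longest late domains and 1 Mb on either side, against the distance from the center of each domain in Mb. Shading marks the domain and the grey line RT 0. Each domain is a low plain, with a mean RT from -3.42 to -3.07, broken by 6 or 7 interior peaks that stay below 0.

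The domains were unequally spread over chromosomes. Chromosome 3 had the most, 13, followed by chromosomes 1, 2 and 6 with 11 each. They covered 42.4% of the bins of chromosome 16 and 40.9% of those of chromosome 6, against 10.5% on chromosome 11 and 8.33% on chromosome 19, which had 1 domain. The share of a chromosome in domains and its mean RT had a Spearman correlation of -0.76 over the 19 autosomes, which is a description, since both come from the same profile. Of the late bins of a chromosome, the domains held between 18.1% (chromosome 19) and 65.8% (chromosome 6), with 65.7% on chromosome 16. The shares were also low on chromosomes 7 (25.3%) and 11 (27%), where most late bins lay in shorter runs.

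Many domains are separated by little. Of 110 pairs of neighbors on a chromosome, 25 lay 1 Mb or less apart and 6 less than 250 kb, whereas the median distance was 5050 kb. On chromosome 12, domains of 3.80 and 5.65 Mb are separated by a single bin with RT 0.10, and on chromosome 6, the domain with Abcg2 and its right neighbor by a single bin with RT 0.06. Both values are within 0.16 of 0, the noise SD estimated for single bins deep in the domains, which was not estimated at bins between domains. On chromosome 16, the domain with Robo1 (RT -3.13) at chr16:65150001-72600000 and the domain with Robo2 (-3.87) at chr16:72700001-78150000 are separated by 100 kb with a highest RT of 0.20. Robo1 and Robo2 encode related axon guidance receptors, and the body of Robo1 runs across the gap. The domains chr4:63600001-74150000 and chr4:74450001-82200000, which cover 18.60 Mb together, are separated by 300 kb around the start of the histone demethylase gene Kdm4c, where the highest RT was 1.24. Conversely, 7 domains had a bin at least 500 kb from both edges that lay within 0.16 of 0, so that where a run ends can rest on a few bins. Just inside the limit of length were 3 domains of 60 or 61 bins, with a mean RT of -2.30, -2.11 and -3.07. Just outside were 4 runs of 58 or 59 bins, with -3.25, -3.38, -3.07 and -2.83.

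Mean RT per domain ran from -3.50 to -2.05, with a median of -3.03 and quartiles of -3.22 and -2.78. The lowest mean, -3.50, belonged to chr5:77550001-85950000 (8.40 Mb), which was also the most even, with an SD of 0.56 over its bins and 89.9% of them at or below RT -3. It has 3 gene starts, and Adgrl3, which encodes a latrophilin, an adhesion receptor of synapses, had RT -3.92. The highest mean, -2.05, belonged to chr1:185700001-188900000 (3.20 Mb). The least even domain was chr14:70950001-74850000 (SD 1.38 over bins). Over all domain bins the median RT was -3.40, with quartiles of -3.74 and -2.50 and a lowest value of -4.87 in the bin chr10:104150001-104200000. At or below RT -3 were 64.6% of the domain bins and 26.6% of all autosomal bins, and the domains held 68.8% of all autosomal bins at that level. These shares are a description, since RT chose the domains. Longer domains tended to have a lower mean RT (Spearman's rho -0.33 over 129 domains). The edges take up a smaller share of a long domain, and whether this accounts for the relation was not tested. In bins at least 500 kb from the edges the mean RT was -3.21 for domains of 3 to under 4 Mb, -3.22 for 4 to under 5 Mb, -3.16 for 5 to under 7 Mb and -3.27 for those of 7 Mb or longer, with no steady order.

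Of the 258 edges, 9 faced a missing bin and the others an early bin. At the edges that faced an early bin, RT was at or below -1 within a median of 100 kb from the outermost bin, -2 within 200 kb and -3 within 350 kb. The slowest took 2050 kb to reach -3. The median RT was -0.32 in the outermost bin, -0.91 at 50 kb, -2.36 at 200 kb and -3.46 at 500 kb, and then lay between -3.61 and -3.46 up to 1450 kb. Outside, the highest RT within 1 Mb had a median of 2.58 and ran from 0.02 to 3.92, so that a part of the domains borders on DNA that is barely early. At the 9 edges at a missing bin RT was at or below -1 in the outermost bin already, so that the late DNA may run on where no value is given.

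GC content and RT were also compared by depth in the domains. By distance from the nearer edge, median RT was -1.33 in the first 250 kb, -3.10 from 250 to 500 kb, -3.55 from 500 to 1000 kb, -3.50 from 1000 to 2000 kb and -3.49 beyond 2000 kb. GC content over the same classes was 40.6%, 39.6%, 38.8%, 38.1% and 37.4%, and protein-coding gene starts numbered 3.92, 2.54, 2.27 and 2.06 per Mb in the first 4 classes and 278 over 3769 bins in the last. The repeat-masked share was 36.1% in the first class, 35.1% in the second and 41.4% in the last. The last class exists only in domains longer than 4 Mb, so distance and domain length cannot be told apart here. GC content was thus lower in each deeper class, whereas the lowest median RT was that of 500 to 1000 kb.

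**Figure D2:**
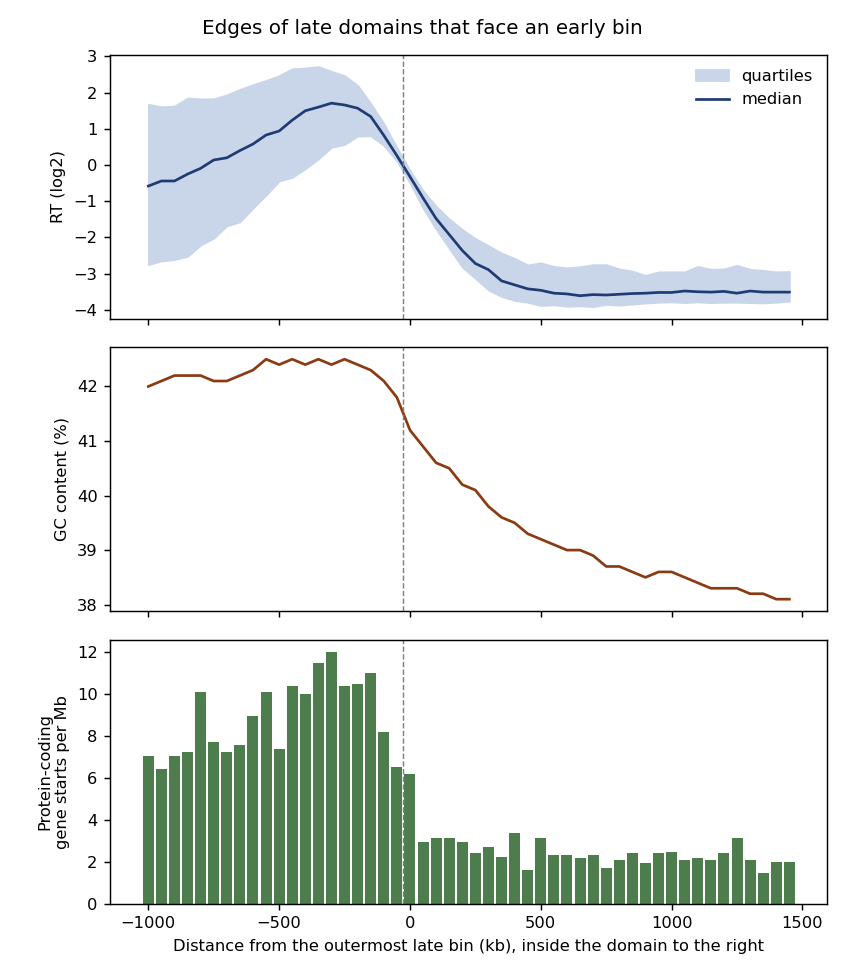
RT (log2, median and quartiles over edges), GC content (%) and protein-coding gene starts per Mb, per 50 kb bin, against the distance in kb from the outermost late bin of the edges that face an early bin. The dashed line marks the edge. Median RT is -3.46 at 500 kb inside, -3.61 at 650 kb and -3.51 at 1450 kb, and GC content is 39.2% at 500 kb and 38.1% at 1450 kb.

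Composition and genes were not used to choose the domains, and they are given beside those of late runs under 3 Mb (854 runs, 14198 bins), early runs of 2 Mb or longer (138 runs, 10197 bins) and all autosomal bins. No test over regions was run. GC content was 38.4% in the domains, 41.1% in the shorter late runs, 46.1% in the early runs and 41.9% over all autosomal bins. It ran from 36.6% to 43.4% among domains and was below the value of all autosomal bins in 124 of the 129. The domains lowest in GC, at 36.6%, were the one with Pcdh9 and Pcdh20 on chromosome 14 and chr16:78650001-84500000, and the highest, at 43.4%, was chr13:69750001-73150000. The share of bases masked as repeats was 38.4% in the domains, 34.3% in shorter late runs, 28.6% in early runs and 33.4% overall. CpG dinucleotides numbered 5.81 per kb in the domains, 7.27 in the shorter late runs and 12 in the early runs. Within chromosomes, GC content was lower in the domains than in the other late bins on 19 of 19 autosomes and the masked share was higher on 17, the exceptions being chromosomes 8 and 19. Among domains, those lower in GC were higher in repeats (Spearman's rho -0.62) and had a lower mean RT (GC against RT, rho 0.47), over 129 domains that share chromosomes.

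Protein-coding genes started at 2.16 per Mb in the domains (exact 95% interval 2.05 to 2.28), 5.51 in shorter late runs (5.33 to 5.68), 18.2 in early runs and 8.65 over all autosomal bins. A start lay in 8.91% of the domain bins, against 28.3% of all autosomal bins. The density was lower in the domains than in the other late bins on 19 of 19 autosomes. The difference was small on chromosome 6, with 4.41 against 4.63 per Mb, and on chromosome 17, with 3.69 against 4.1. Genes named Olfr, Vmn1r or Vmn2r were then left out, a choice made after seeing the data. The densities were 1.89 per Mb in the domains and 4.06 in shorter late runs. Shorter late runs also have higher RT, so bins were compared in the same interval of RT, with all protein-coding genes kept. Distance from an edge and gene families were not matched. From RT -4 to -3.5 there were 1.19 starts per Mb in domains (1.06 to 1.33) and 4.08 in shorter runs (3.68 to 4.51), and GC content was 37.7% and 38.9%. From -2 to -1.5 there were 3.81 (3.24 to 4.45) and 6.17 (5.64 to 6.73). From -0.5 to 0 there were 6.95 (5.73 to 8.36) and 6.46 (5.95 to 6.99), where the intervals overlap. In each interval of 0.5 from -4.5 to -0.5 the density was lower in the domains. The exact intervals overlapped from -1.5 to -1, with 4.81 (4.1 to 5.62) against 6.05 (5.52 to 6.6), and next to RT 0.

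**Figure D3:**
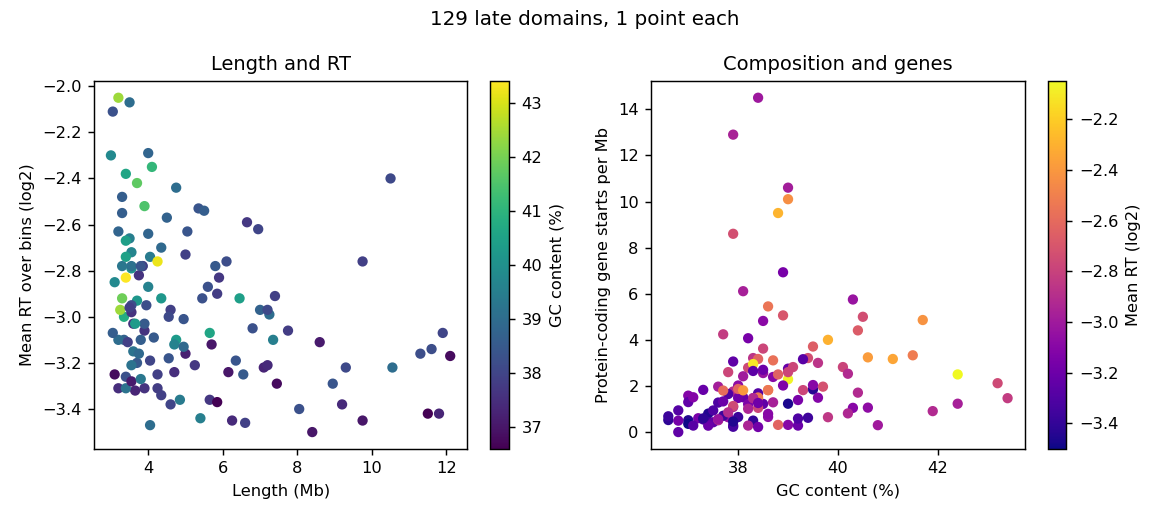
Each of the 129 late domains as a point, with its length in Mb against its mean RT (log2, colored by GC content), and its GC content (%) against its protein-coding gene starts per Mb (colored by mean RT). The highest mean RT among the 25 domains of 7 Mb or longer is -2.40, and 11 domains stand above 5 gene starts per Mb.

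The median domain had 8 protein-coding gene starts, and 40 of the 129 had fewer than 1 per Mb. Genes of other kinds are not in these counts, and chr6:67500001-70700000 had 1 protein-coding start among 215 annotated gene starts. The domain at chr1:140300001-143400000 (3.10 Mb, mean RT -3.25) had 0 protein-coding starts. Of the several domains with 1, chr18:25700001-30250000 had the lowest density, 0.22 per Mb. At the other end, 11 domains had more than 5 per Mb and held 454 of the 1467 gene starts, 30.9%, while the other 118 had 1.62 per Mb. The genes of these 11 were named after their values were seen, and families with genes in tandem lead in most of them. The densest, chr6:128900001-133850000 with 72 starts or 14.5 per Mb, holds 24 bitter taste receptor genes (Tas2r) and 11 natural killer cell lectin receptor genes (Klra), and its mean RT was -3.01. The domain at chr17:17850001-21350000 (45 starts) holds 21 Vmn2r, 14 Vmn1r and 7 Fpr genes, which encode receptors of the vomeronasal organ and of phagocytes. The domain at chr6:39900001-47150000 (77 starts) holds 23 Olfr and 8 Tas2r genes beside Cntnap2, and that at chr13:25100001-28850000 (26 starts) holds prolactin-family genes, among them 5 with names in Prl8a and 3 in Prl3d, with RT at the starts from -4.05 to -2.36. The mean RT of the 11 domains ran from -3.16 to -2.29. The median RT at their gene starts ran from -3.61 in the domain with the prolactin-family genes to -1.24 in chr12:87750001-91400000 and -1.33 in chr9:4300001-7600000, which holds 6 Mmp genes, of matrix metalloproteinases. Over the 129 domains, mean RT and gene starts per Mb had a Spearman correlation of 0.54.

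Domains held a larger share of the longest genes than of others. Of 20732 autosomal protein-coding genes with RT at their start, 7.08% start in a domain. The share was 4.98% for genes of 10 to 50 kb (exact 95% interval 4.53% to 5.45%), 17.6% for genes of 200 to 500 kb (14.9% to 20.5%), 36.2% for genes of 500 to 1000 kb (28.8% to 44.1%) and 54.5%, or 30 of 55, for genes of 1 Mb or more (40.6% to 68%). Of the last, 19 started in shorter late runs and 6 in early bins. The longest gene wholly inside a domain was Ptprd (2271 kb, chromosome 4), which encodes a receptor phosphatase of synapses, with RT from -4.13 to -0.81 along its body. Lsamp (2197 kb, chromosome 16), an adhesion protein of the limbic system, followed with RT from -4.28 to -1.64. Lrp1b (2058 kb, chromosome 2), a lipoprotein receptor relative, had RT from -4.07 to -2.23. Macrod2 (1998 kb, chromosome 2) starts near an edge, with RT -1.36 at its start and -3.93 at its lowest. Csmd1 (1643 kb), Nrxn3 (1612 kb), Pcdh15 (1550 kb), Gpc5 (1433 kb), Naaladl2 (1346 kb) and Lrrc4c (1313 kb) had a mean RT over their bodies from -3.76 at Nrxn3 to -3.49 at Csmd1. The bodies of Nrxn3, Pcdh15, Gpc5, Naaladl2 and Lrrc4c stayed at or below RT -2.64 throughout, whereas Ptprd, Lsamp, Macrod2 and Csmd1 crossed bins above -2.

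**Figure D4:**
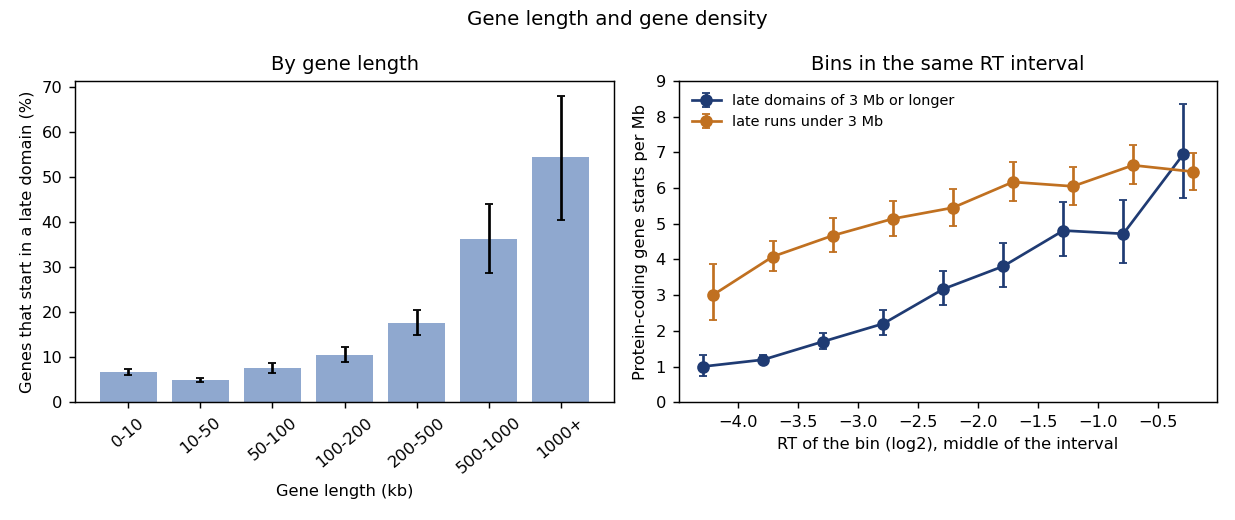
Left, the share (%) of autosomal protein-coding genes that start in a late domain, by gene length in kb, with exact 95% binomial intervals. Right, protein-coding gene starts per Mb, with exact 95% Poisson intervals, in bins of the late domains and of late runs under 3 Mb in the same interval of RT (log2). The share reaches 54.5% for genes of 1 Mb or more, and the domains lie below the shorter runs except next to RT 0.

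The gene lists were read against the share of all protein-coding genes, 7.08%. They were chosen with results of these data known, so their shares are a description. Of the 57 annotated genes on a list of long neuronal adhesion and synapse genes, 50 start in a domain (87.7%, exact 95% interval 76.3% to 94.9%), and they lie in 38 different domains. Sema3c, a secreted guidance cue, had the lowest RT of those in domains, -4.17, followed by Cntnap5c (-4.08) and Kcnip4 (-4.07), a potassium channel partner. Sema3e (-2.10) had the highest. The 7 outside were Dcc (-4.20), Dpp6 (-0.96), Csmd2 (-0.64) and Dlg2 (-0.35) in shorter late runs and Tenm3 (0.97), Grid1 (2.57) and Ctnna3 (3.16) at early bins. The shares of genes of the same length outside the list were lower. Among genes of 500 to 1000 kb, 19 of 23 on the list start in a domain and 40 of 140 others (28.6%), and among genes of 1 Mb or more, 17 of 20 and 13 of 35 (37.1%). Of the 14 shorter members, such as Slitrk1 (5.36 kb), 14 start in a domain.

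Of 12 type II cadherin genes, 10 start in 4 domains. These are the genes of the chromosome 15 and chromosome 1 domains above, and Cdh8 (RT -3.37) and Cdh11 (-3.81) in chr8:96150001-104200000. The exceptions are Cdh22 (2.44) and Cdh24 (3.57). Of 8 autosomal delta protocadherin genes, 6 start in 4 domains, among them Pcdh7 (-3.87), Pcdh18 (-3.70), Pcdh17 (-2.91) and Pcdh10 (-2.55), while Pcdh8 (0.69) and Pcdh1 (2.38) are early. Pcdh8 starts at the left of the domain that holds Pcdh17, which begins at 79800001 on chromosome 14. Genes of one cluster share a domain, so the count of domains is the better measure of how often this occurred.

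Sensory receptor genes were divided otherwise. Of 1088 olfactory receptor genes, 103 (9.47%) start in 5 domains and 793 in shorter late runs, and of 313 vomeronasal receptor genes, 76 (24.3%) start in 4 domains and 202 in shorter late runs. Over all autosomal protein-coding genes, 3908 of 20732 start in shorter late runs. Within domains the median RT of the olfactory and vomeronasal receptor genes was -3.14 and -3.23. Of 60 serpin genes, 13 lie in 2 domains, of which 11 are in the chromosome 1 cluster described above. Of 100 cytochrome P450 genes, 9 lie in 2 domains, 8 of them the Cyp2j genes in chr4:95000001-98400000, from RT -3.65 at Cyp2j5 to -1.58 at Cyp2j7. Of 62 defensin genes, 2 lie in a domain, Defb41 (-2.60) and Defb18 (-2.58), and of 22 UDP-glucuronosyltransferase genes, 1 does, Ugt8a (-3.79). Shares of these lists thus lay from 3.23% for defensins to 24.3% for vomeronasal receptors.

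Few genes of the last 3 lists start in a domain. Of 20 ES cell regulators 0 start in a domain, which allows a share of up to 16.8% by the exact interval, and their RT ran from 2.18 at Dppa4 to 3.57 at Lin28a. Of 90 cytosolic ribosomal protein genes 2 start in a domain (2.22%, exact 95% interval 0.27% to 7.8%). The intervals of both lists include the 7.08% of all protein-coding genes. Rpl10l, a single-exon relative used in the testis, had RT -2.70, and Rps23, a protein of the small subunit, had -0.38 within 100 kb of an interior peak (RT -0.21) of chr13:81850001-92350000, 1450 kb from the nearer edge. Of 381 zinc finger protein genes, 7 (1.84%, exact 95% interval 0.742% to 3.75%) start in 6 domains, from Zfp804b (-3.20) to Zfp770 (-0.49), while 350 are early.

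**Figure D5:**
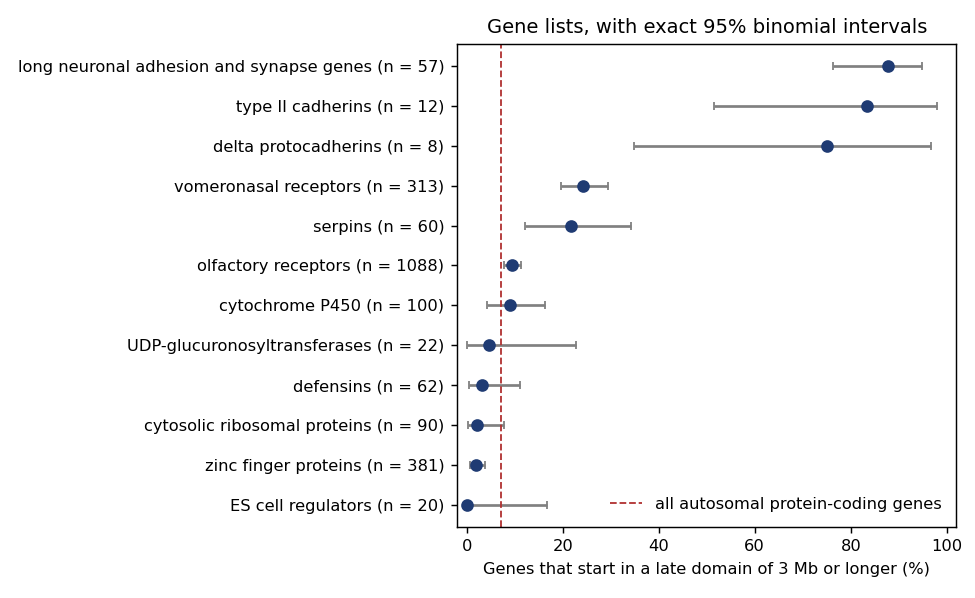
Share (%) of the genes of each list that start in a late domain of 3 Mb or longer, with exact 95% binomial intervals. The number of genes with RT is given beside each name, and the dashed line is the share of all autosomal protein-coding genes, 7.08%. The 3 lists of adhesion genes lie at 75% or above, and ES cell regulators at 0.

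Other kinds of annotated genes were less depleted. Of all autosomal pseudogenes with RT, 21.8% start in a domain, of long non-coding RNA genes 13.4% and of miRNA genes 13%, against 7.08% of protein-coding genes and 28.3% of all bins. Per Mb of domain there were 3.70 pseudogenes, more than the 2.16 protein-coding genes, whereas over the autosomes there were 4.81 and 8.65.

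Inside the domains, at least 500 kb from both edges, 272 peaks stood at least 1 log2 above the lowest bins within 500 kb on either side. They lay in 117 of the 129 domains, with up to 7 in a domain. The highest bin of a peak had a median RT of -1.72, was at or above -1 in 65 and under -3 in 3. A protein-coding gene started within 100 kb of 108 of the 272 (39.7%, exact 95% interval 33.8% to 45.8%), compared with 25.8% of all interior bins. Most peaks had no protein-coding gene start that close. The body of such a gene overlapped 101 of the peak bins. The share of all interior bins that overlap a gene was not computed, so this count has no background. The highest, RT -0.01 at chr5:50100001-50150000, overlaps no protein-coding gene, and Adgra3 starts within 100 kb. The next, at chr6:58550001-58600000 (RT -0.02), holds the start of Abcg2, a drug efflux transporter. The peak at chr16:59550001-59600000 (-0.08) lies in Crybg3, that at chr13:85150001-85200000 (-0.08) holds Ccnh, a cyclin of the transcription factor TFIIH, and that at chr5:41750001-41800000 (-0.10) overlaps Bod1l and Nkx3-2. Elavl2, a neuronal RNA-binding protein gene, lies at a peak of RT -0.10 on chromosome 4, and Bmt2 and Tmem168 at one of -0.16 on chromosome 6. A peak on chromosome 17 (-0.16) and 2 on chromosome 6 that tie for the tenth place (-0.18) overlap no protein-coding gene. The lowest bins within 500 kb on either side of the peaks named above lay between -4.16 and -3.13, except at Abcg2 (-2.26 on the right). A peak can also be a single bin. In the domain with Pcdh9 on chromosome 14, a peak bin with RT -2.36 lies between bins with -4.46 and -4.01. After a running median over 5 bins, which also changed the domains, there were 214 peaks.

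Interior bins with a protein-coding gene start had a median RT of -2.93 (quartiles -3.60 and -1.86, 862 bins), and those without had -3.53 (-3.79 and -2.99, 10131 bins). The quartile ranges overlap. GC content of interior bins and RT had a Spearman correlation of 0.24 and the masked share and RT of 0.02, over 10993 bins that are not independent. Bins with a gene start thus had the higher median, and their lower quartile lay near the median of the others.

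Promoters were compared by the ratio of observed to expected CpG, over 250 bases before to 50 after the start. A ratio at or above 0.6, as in CpG islands, occurred in 32.7% of the 1467 genes that start in domains (exact 95% interval 30.3% to 35.2%), in 19.5% of the 3908 genes of shorter late runs (18.3% to 20.8%) and in 48% of all autosomal genes. Without genes whose names begin with Olfr, Vmn1r or Vmn2r, a choice made after seeing the data that leaves out 182 genes in domains, some not on the receptor lists above, the shares were 37.4% (34.7% to 40.1%) and 26.4% (24.8% to 28.1%). Among the genes in domains, those with a CpG-rich promoter had a median RT of -1.95 (quartiles -3.10 and -1.07) and the others -2.83 (-3.55 and -1.74). As an example of each kind, 150 bases before the RefSeq start in GRCm38 are shown for the gene at the highest peak and for the longest gene that have an entry in the promoter table and no annotated exon in this window, with CpG in capitals.

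Crybg3, chr16:59601048-59601197, minus strand, RT -0.33 at the start: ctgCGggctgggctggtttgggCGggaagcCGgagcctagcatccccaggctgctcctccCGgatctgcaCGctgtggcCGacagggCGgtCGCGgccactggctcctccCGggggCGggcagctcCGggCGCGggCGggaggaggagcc
Lrrc4c, chr2:96318019-96318168, plus strand, RT -3.75 at the start: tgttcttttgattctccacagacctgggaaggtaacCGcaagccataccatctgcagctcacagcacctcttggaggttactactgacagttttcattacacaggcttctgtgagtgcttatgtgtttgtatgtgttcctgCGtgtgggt

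The Crybg3 window has 15 CpGs and a GC content of 76.7%, and its promoter a ratio of 0.767. The Lrrc4c window, of a synaptic adhesion gene wholly inside chr2:94400001-100650000, has 2 CpGs and a GC content of 47.3%, and its promoter a ratio of 0.32. These letters describe the reference sequence and were not measured in the cells.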

How the data were processed

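The data are population Repli-seq of F121-9 mESCs, from 4 libraries (2 early, 2 late). Per the paper's methods, the authors converted reads to RPM and deposited the log2 of early over late reads per 50 kb bin. The submitters' processing notes name mm10, Bowtie2, SAMtools and bedtools. Filters on bins, smoothing and the way replicates were combined are not given in the sources used here. A single combined column was used, so depth per sample is unknown.

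Late domains were runs of at least 60 bins spaced by 50 kb with RT below 0. GC content, CpG and soft-masked repeats came from GRCm38.p6 and genes from GENCODE vM21, whose build matches. Promoter windows came from the RefSeq table where its start lay within 1000 bases of the annotated start (13525 of 20732 genes) and otherwise from the genome. Interior peaks, edges and the regions and genes to be named followed fixed rules: the 5 longest domains, extremes of RT, GC content, SD and gene density, the 10 longest genes, genes at the 10 highest peaks and extremes of each list. Of the promoters that the rule names, those without a table entry or with an annotated exon were passed over. A few named items, among them 1 of the 10 highest peaks, are not reported here. Members and lists were chosen with earlier results of these data known. No test was run: RT chose the domains, and regions are not replicates. Run, peak and edge calling were tested on simulated data. Python 3.11.15, numpy 2.4.6, scipy 1.17.1, pandas 2.3.3 and matplotlib 3.10.9 were used.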

Additional observations from a re-analysis of the deposited data

How the results depend on the processing

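No paired analysis was possible because each bin holds a single value made from all 4 libraries, and for the same reason no replicate could be left out. Of 62 alternatives 25 left a value within its interval, or a count within 1.5 times, and 37 moved it. Some alternatives change the quantity itself, such as another RT level at the edges or all gene biotypes. The intervals also take no account of dependence between bins, so the tally is a description only. With the cut at RT -0.5 and -1 the domains held 24.9% and 20.5% of the bins, with a median of mean RT of -3.14 and -3.26, a median GC content of 38.2% and 38%, and 1.82 and 1.63 gene starts per Mb. After a running median over 5 bins, and likewise with up to 2 early bins tolerated, they held 31.2% of the bins and 2.94 gene starts per Mb. With missing stretches up to 200 kb bridged these were 29.1% and 2.43, and with X added 28.9% of bins. A minimum of 2 Mb gave 212 domains, 36.7% of bins, a median length of 3.48 Mb, RT of -2.95, GC content of 38.8% and 2.88 starts per Mb. A minimum of 5 Mb gave 51 domains, 15.9%, 6.95 Mb, -3.12, 38% and 1.83. At least 500 kb from both edges, median GC content was 38% and there were 1.91 starts per Mb. All gene biotypes started at 10.7 per Mb. CpG-rich promoters were 39.6% at a ratio of 0.5, 21.9% at 0.75, 37.4% without genes named Olfr, Vmn1r or Vmn2r and 39.7% for genes of the promoter table, where the last 2 were added after seeing the data. With a prominence of 2 log2 there were 108 interior peaks, and after a running median over 5 bins 214. RT -1 was reached at a median of 100 kb and RT -3 at 350 kb. The depth of the libraries is unknown, and its effect could not be examined.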

Other observations

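Chromosome X, which the rule leaves out, had 12 runs of the same kind. They held 1223 of its 3225 bins (37.9%), with a median length of 5.10 Mb and a longest of 7.90 Mb. Their median of mean RT was -3.02, against -3.03 on the autosomes. Their GC content was 37.7%, where all of X had 39.3%. The masked share was 49.7% and protein-coding genes started at 2.53 per Mb. These last values were not computed for all of X, so they cannot be told apart from traits of the whole chromosome.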
